A study of Mus musculus with 6 samples.

Results

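Adrenomedullin is a secreted peptide hormone, and the genes described here are Adm, which encodes it, and the 4 genes of its receptor complex, Calcrl, Ramp1, Ramp2 and Ramp3. They were found by gene symbol in the authors' deposited comparison and joined to the expression values by transcript cluster, the probe group of the array that stands for one gene. Where a symbol had several transcript clusters the brightest was to be used, but each of the 5 symbols had 1, so no measured value entered this step. The complex was selected on the log2 difference of Adm between the 2 lines, which was known beforehand. The 5 genes are 5 of 24268 genes analysed.

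The study asked about mutant p53 in cells of the oviduct, the mouse counterpart of the fallopian tube. Mouse oviductal epithelial (MOE) cells were made into a stable line with a plasmid for p53 R273H, a mutant with a changed DNA-binding domain, or with the empty vector pCMV-Neo. There were 3 arrays of p53 R273H cells and 3 of empty vector cells, with RNA from consecutive passages of each line. Both lines were transfected, kept under antibiotic selection and isolated by clonal growth, in medium with serum, epithelial growth factor (as the labels spell it), insulin, transferrin and β-estradiol. How many clones make up a line is not stated in the labels. Plasmid and line therefore cannot be told apart, and p-values measure the spread between passages of a line.

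All values are log2 expression values as the authors deposited them. The median over all transcript clusters was 4.53, and a gene is called dim here where both group means lie under it. The files do not say whether such a signal exceeds background. Precision is limited by having 3 arrays a line, and the SD within a line had a median of 0.14 over genes. The signal of Trp53, the mouse p53 gene, was 9.39 ± 0.10 in p53 R273H cells and 10.06 ± 0.07 in empty vector cells (SD, n = 3 each). Probe sequences were not used here, so whether this signal includes the plasmid's transcript is unknown and it does not check the labels. Of 10 markers of the oviductal epithelium 1 rose and 5 fell at a limma adjusted p under 0.05, where 23.6% of all genes passed in either direction. Their median difference was -0.45. Those that fell were Krt19 (-2.50), Wt1 (-1.93), Ovgp1 (-1.28), Krt8 (-1.19) and Foxj1 (-0.88), and Krt7 rose by 1.80. The lineage factor Pax8 had means of 10.48 in p53 R273H cells and 10.21 in empty vector cells, while the epithelial adhesion molecule Epcam was dim, at 4.03 in p53 R273H cells and 4.05 in empty vector cells.

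Adrenomedullin is cut from a precursor and amidated at its end, and it signals through a class B G protein-coupled receptor, CALCRL. This receptor needs a receptor activity-modifying protein (RAMP) to reach the cell surface and to choose its ligand. With RAMP2 or RAMP3 it binds adrenomedullin, and with RAMP1 it binds calcitonin gene-related peptide (CGRP). Binding raises cAMP through the stimulatory G protein. Adm is known as a gene induced by low oxygen, and the peptide as a factor in the growth of blood and lymph vessels. In the rat oviduct it has been linked to the beating of cilia.

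The sequences just before the transcription starts of Adm and Ramp3 are shown because these genes had the largest difference upward and downward among the 5. They are the 250 bases before each start from RefSeq (GRCm38.p6), given 5′ to 3′ on the strand of the gene. Adm lies on the plus strand and its stretch is chr7:110627407-110627656. Ramp3 lies on the plus strand and its stretch is chr11:6658283-6658532. Capitals mark TATAA, the letters of a TATA box, and GGGCGG, the letters of a GC box, on either strand.
Adm: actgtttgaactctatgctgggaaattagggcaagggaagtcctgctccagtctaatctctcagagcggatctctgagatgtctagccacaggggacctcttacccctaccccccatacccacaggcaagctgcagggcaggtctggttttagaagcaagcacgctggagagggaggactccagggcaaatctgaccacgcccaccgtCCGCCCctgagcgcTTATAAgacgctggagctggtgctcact
Ramp3: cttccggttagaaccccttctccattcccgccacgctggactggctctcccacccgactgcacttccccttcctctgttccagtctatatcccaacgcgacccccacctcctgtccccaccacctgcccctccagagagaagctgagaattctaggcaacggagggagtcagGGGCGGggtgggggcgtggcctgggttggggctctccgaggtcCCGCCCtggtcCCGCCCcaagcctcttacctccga
TATAA was searched on both strands in 32851 promoter stretches of this length and was found in 22.8% of them. In Adm it occurred 27 and 28 bases before the start, as overlapping matches on opposite strands, and it did not occur in Ramp3, Calcrl or Ramp1. GGGCGG, held by 32.7% of the stretches, occurred once in Adm, once in Calcrl and 3 times in Ramp3, with no overlap with TATAA. The core letters bound by hypoxia-inducible factors, ACGTG, are held by 16.6% of stretches, and TGACG, part of a cAMP response element, by 17.8%. Neither occurred in these windows of Adm, Calcrl, Ramp1 or Ramp3, nor did the p53 half-site, which 7.13% of stretches hold. The other form of the hypoxia core, GCGTG, was not searched, and the printed stretches of Adm and Ramp3 do hold it, counting both strands. The Ramp3 stretch was richer in G and C (65.2%) than that of Adm (56.8%), Ramp1 (54.0%) or Calcrl (48.4%). Matches to such letters are descriptions of the sequence only.

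Adm was far higher in p53 R273H cells (transcript cluster 17481770, chromosome 7). Its values were 10.70, 10.70 and 10.59 in p53 R273H cells, against 6.14, 6.06 and 5.88 in empty vector cells. All p53 R273H arrays lay above all empty vector arrays, with a gap of 4.44 between the nearest arrays and a spread of at most 0.26 within a line. The means were 10.66 ± 0.06 in p53 R273H cells and 6.03 ± 0.13 in empty vector cells (SD, n = 3 each). The difference was 4.63 ± 0.10 (SE) on the log2 scale, which is 24.8-fold. Both means exceeded the median of all transcript clusters. No test is given for Adm, since it was chosen with its difference already known. In these bulk samples more RNA per cell and more cells with the transcript cannot be told apart.

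Among all genes Adm had the 12th largest positive difference, and 13 genes were lower by at least as much on the log2 scale. None of the 11 genes above it had a higher mean over the 6 arrays than Adm, whose mean was above that of 86.0% of genes. Over the 6 arrays the genes with values nearest to those of Adm, once each gene's own mean was subtracted, were Dcn, Greb1 and Slc14a1. Dcn encodes the matrix proteoglycan decorin, Greb1 is an estrogen-responsive gene and Slc14a1 encodes a urea transporter. Their root mean square distances from Adm were 0.07, 0.14 and 0.18 on the log2 scale. Dcn had means of 8.02 ± 0.05 in p53 R273H cells and 3.32 ± 0.13 in empty vector cells (SD, n = 3 each). With 2 lines, such likeness mostly reflects a difference of like size between them.

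**Figure D1:**
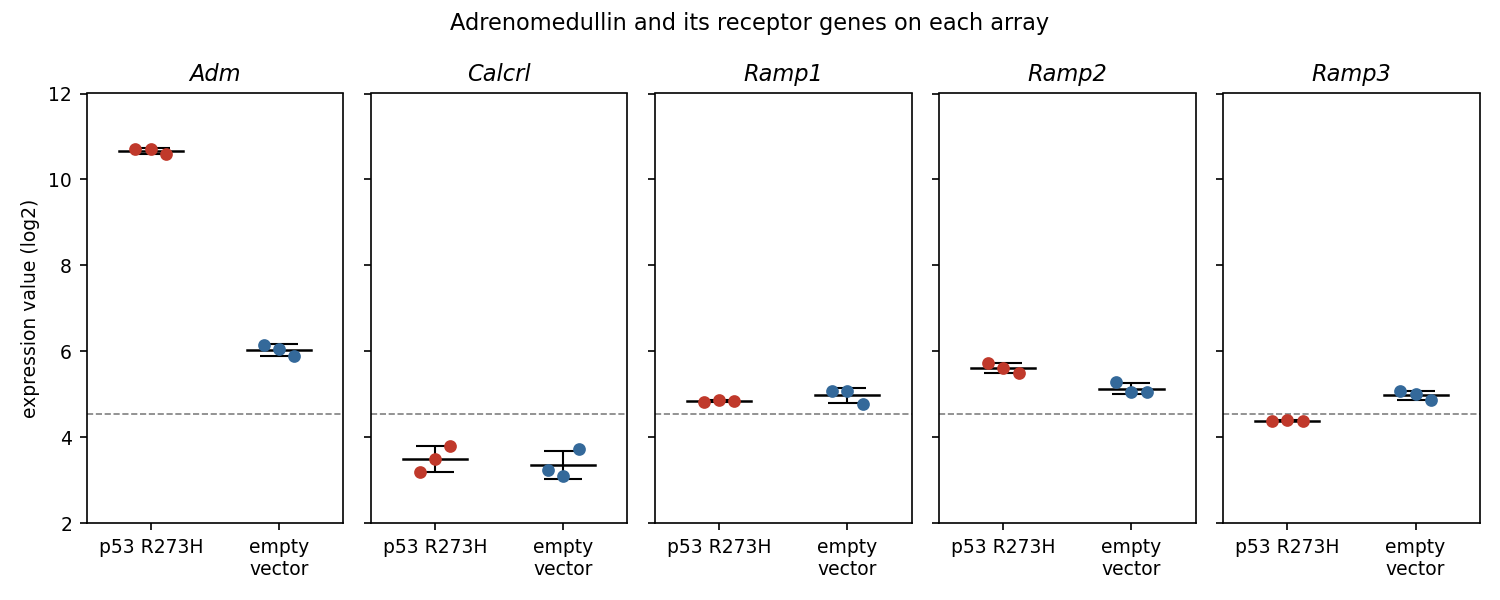
Expression values (log2, vertical axis) of the 5 genes on each array, with p53 R273H cells (red) left of empty vector cells (blue). Points are arrays in the order of their replicate numbers, long bars are means, whiskers are SD (n = 3), and the dashed line is the median of all transcript clusters, 4.53; Adm stands at 10.59 to 10.70 in p53 R273H cells and at 5.88 to 6.14 in empty vector cells.

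The 4 receptor genes showed no change near that size. Of them, 1 rose and 1 fell at a limma adjusted p under 0.05, against 23.6% of all genes called in either direction, and 4 genes are too few to read against that share. None of the 4 reached 2-fold with such a p, as 5.51% of all genes did. The groups did not overlap for the same pair, Ramp2 and Ramp3, where 38.1% of all genes had groups that did not overlap. Ramp2 was at 0.48 and Ramp3 at -0.59, and 18.4% and 13.4% of genes had differences at least as large in size as these.

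Calcrl, the receptor itself, was dim (transcript cluster 17387385, chromosome 2). Its values were 3.19, 3.48 and 3.80 in p53 R273H cells, against 3.25, 3.11 and 3.73 in empty vector cells. The lines overlapped, and within each the arrays spread over 0.62. The means were 3.49 ± 0.31 in p53 R273H cells and 3.36 ± 0.32 in empty vector cells (SD, n = 3 each). The difference of 0.13 had a 95% confidence interval from -0.34 to 0.60 and did not pass the test (limma adjusted p = 0.718). It took the opposite sign, -0.025, without p53 R273H replicate 3. The mean of Calcrl over all arrays was above that of 15.5% of genes.

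Ramp2, the partner that makes CALCRL an adrenomedullin receptor in vessels, rose modestly (transcript cluster 17256607, chromosome 11). Its values were 5.72, 5.62 and 5.49 in p53 R273H cells, against 5.29, 5.05 and 5.06 in empty vector cells. The lines did not overlap, but the gap of 0.20 between the nearest arrays was smaller than the spread within each line, 0.23. The means were 5.61 ± 0.12 in p53 R273H cells and 5.13 ± 0.13 in empty vector cells (SD, n = 3 each). The difference was 0.48 ± 0.11 (SE), or 1.39-fold, with a limma adjusted p of 0.0172. The call depended on which array was left out. Leaving out p53 R273H replicate 1 gave a limma adjusted p of 0.0551, and leaving out p53 R273H replicate 2 gave 0.0502. Leaving out empty vector replicate 2 gave 0.0652, and empty vector replicate 3 gave 0.0625. The call held without empty vector replicate 1 (limma adjusted p = 0.0184) and without p53 R273H replicate 3 (0.0234). The step-up p-value of the authors' deposited table was 0.0666.

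Ramp3, the partner that makes CALCRL the other adrenomedullin receptor and directs its recycling to the surface, fell (transcript cluster 17247176, chromosome 11). Its values were 4.39, 4.40 and 4.38 in p53 R273H cells, against 5.08, 5.00 and 4.86 in empty vector cells. All p53 R273H arrays lay below all empty vector arrays, with a gap of 0.47, more than the spread within either line. The means were 4.39 ± 0.01 in p53 R273H cells and 4.98 ± 0.11 in empty vector cells (SD, n = 3 each). It fell by 0.59 ± 0.09 (SE), a 1.51-fold difference, with a limma adjusted p of 0.00285. With any 1 array left out the adjusted p stayed between 0.00591 and 0.0145. The step-up p-value of the authors' deposited table was 0.0122. The mean of p53 R273H cells lay under 4.53.

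Ramp1, the partner for CGRP, did not pass the test (transcript cluster 17215697, chromosome 1). Its values were 4.82, 4.86 and 4.84 in p53 R273H cells, against 5.08, 5.07 and 4.77 in empty vector cells. Empty vector replicate 3 lay below all p53 R273H arrays, so the lines overlapped. The difference was -0.13, with a 95% confidence interval from -0.39 to 0.13 (limma adjusted p = 0.468). That interval does not reach a 2-fold change. The interval of Calcrl does not either, but whether its dim signal exceeds background is unknown, so it does not bound a change of its RNA.

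Ramp2 and Ramp3 moved apart, which was noticed after their values were seen and is given without a test. The log2 value of Ramp2 minus that of Ramp3 on the same array was 1.34, 1.22 and 1.11 in p53 R273H cells, against 0.21, 0.06 and 0.19 in empty vector cells. The mean of this difference was 1.22 ± 0.11 in p53 R273H cells and 0.15 ± 0.08 in empty vector cells (SD, n = 3 each), which puts the ratio of Ramp2 to Ramp3 signal 2.10-fold higher in p53 R273H cells. Probes of different genes differ in brightness, so this shows unequal change of signal and not which RAMP was more abundant. The mean of Ramp3 in p53 R273H cells, 4.39, lay under 4.53, and whether such a signal exceeds background is unknown. The call of Ramp2 was lost in 4 of the 6 leave-one-out comparisons. The genes nearest to Ramp2 in pattern over the 6 arrays were Apol7d, Trim26 and Fat4, at distances of about 0.05 each. Those nearest to Ramp3 were Irak1bp1, Wdr67 and Pppde2, at 0.03, 0.03 and 0.04.

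**Figure D2:**
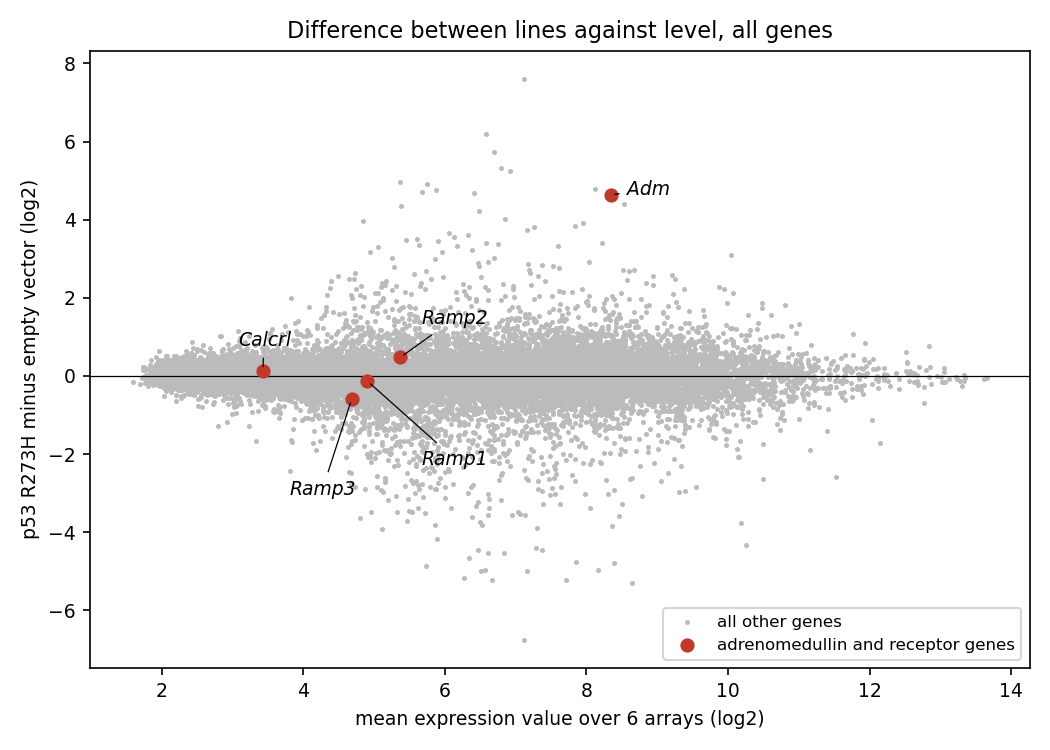
Difference between p53 R273H and empty vector cells (log2, vertical axis) against the mean over 6 arrays (log2, horizontal axis) for 24268 genes (grey), with the 5 genes in red. Adm stands at 4.63 and a high level, while Calcrl, Ramp1, Ramp2 and Ramp3 lie between -0.59 and 0.48 at lower levels.

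The genes beside each member on its chromosome, 3 on each side in RefSeq order, were set beside it. Around Adm the difference ran from -1.52 to 1.02. Of these 6 genes 4 were called, where 23.6% of all genes were, and 6 genes are too few to read against that share. The RING finger gene Rnf141 rose by 1.02 ± 0.10 (SE) and Swap70 by 0.51 ± 0.10. Ampd3, an AMP deaminase next to Adm, fell by 1.52 ± 0.10 and the kinase Wee1 fell by 0.42 ± 0.09. Sbf2 (0.28) and Lyve1 (0.07) did not pass the test. Around Calcrl, 4 of 6 genes rose, where 11.9% of all genes did, and 6 genes are again too few to read against that share. They were the integrin Itgav (1.11 ± 0.09 SE), Ctnnd1, which encodes p120 catenin (1.08 ± 0.12), Fam171b (1.03 ± 0.14) and Tfpi, an inhibitor of coagulation (0.60 ± 0.09). Zswim2 (0.14) and Gm13710 (-0.07) did not pass, and both were dim.

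Beside the RAMP genes 0, 0 and 1 of 6 genes were called, for Ramp1, Ramp2 and Ramp3, against the same 23.6% of all genes. The difference from the counts beside Adm and Calcrl was not tested. None of the 6 neighbours of Ramp1, Rab17, Lrrfip1, Rbm44, Ube2f, Scly and Espnl, passed the limma test, with differences from -0.13 to 0.34 and 1 of 6 at an unadjusted p under 0.05. None of those of Ramp2, Ccr10, Cntnap1, Ezh1, Vps25, Wnk4 and Becn1, passed it either, with differences from -0.19 to 0.15 and 0 of 6 at an unadjusted p under 0.05. Beside Ramp3 the small RNA gene Snora5c fell by 0.60 ± 0.11, while Wap, Gm11978, Gm11981, Gm11983 and Adcy1 did not pass, from -0.06 to 0.38. The median difference of all measured genes was -0.02 on chromosome 7, 0.09 on chromosome 2, 0.01 on chromosome 1 and 0.01 on chromosome 11.

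**Figure D3:**
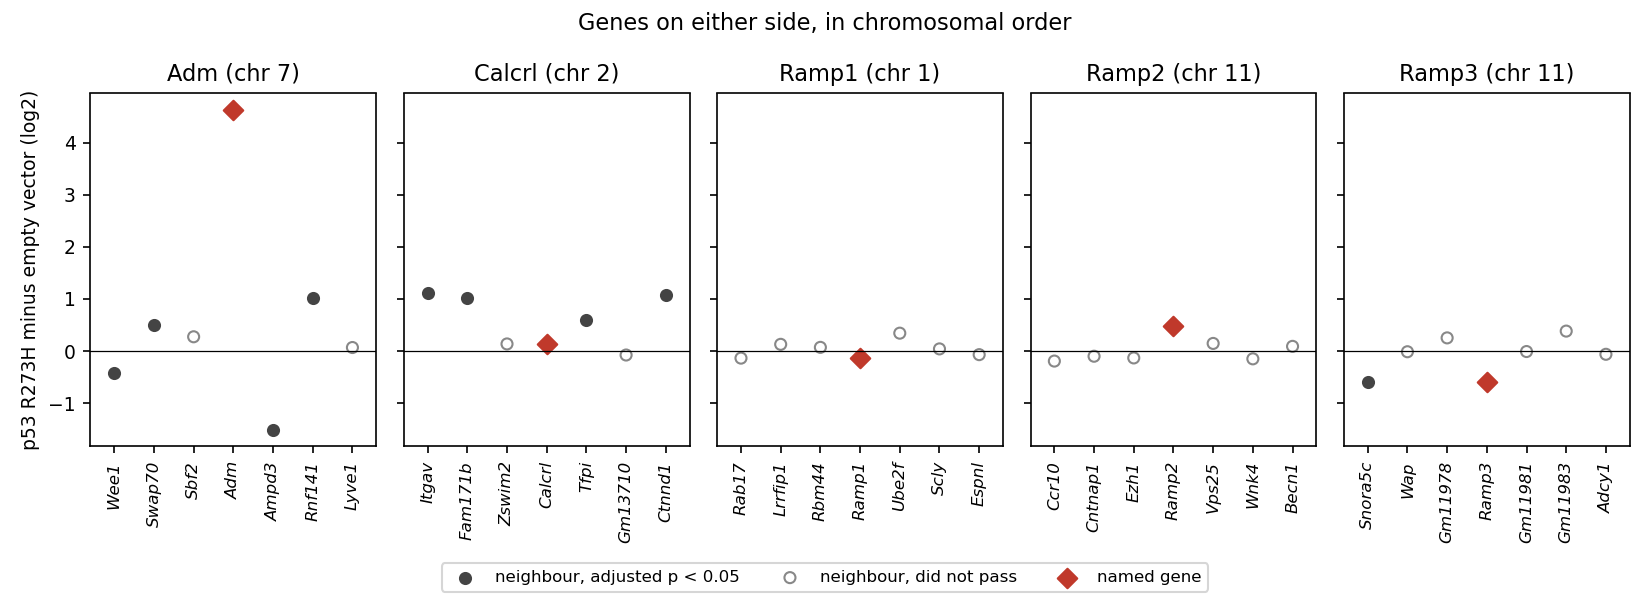
Difference between p53 R273H and empty vector cells (log2, vertical axis) for each of the 5 genes (red diamonds) and the 3 measured genes on either side (horizontal axis, in chromosomal order, not to scale). Filled circles passed the limma test at an adjusted p under 0.05. Genes beside Adm lie between -1.52 and 1.02. Of the genes beside Calcrl 4 of 6 rose, where 11.9% of all genes did, and 6 genes are too few to read against that share.

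Genes that act with adrenomedullin were read from 10 lists, of which 108 of 109 genes were measured. Of these, 24 rose and 14 fell at a limma adjusted p under 0.05, against 11.9% of all genes higher and 11.6% lower. Counts in the lists below stand against the same shares, or 23.6% in either direction. Those shares are not matched to the level of the list genes. With genes under the 50th percentile of mean level left out, 6333 of the genes that remained were called, against 5717 of all 24268. Among brighter genes the share called was therefore larger than 23.6%, though the adjustment then ran over fewer genes. The median difference of all genes was 0.02.

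The other peptides of the family and their receptor were low on these arrays, and 4 of 5 were dim. Iapp, which encodes amylin, fell by 0.50 ± 0.12 (SE), to 3.05 in p53 R273H cells, against 3.55 in empty vector cells (limma adjusted p = 0.0178). Its call was lost without p53 R273H replicate 1 (limma adjusted p = 0.0573) or 3 (0.0595). It was also lost without empty vector replicate 1 (0.0508) or 3 (0.0641). Adm2, the closest relative of Adm, had means of 4.60 in p53 R273H cells and 4.41 in empty vector cells, a difference of 0.19 that did not pass (limma adjusted p = 0.208). Calca and Calcb, the CGRP genes, differed by 0.42 and 0.25, and the calcitonin receptor Calcr by 0.35. None of these passed (limma adjusted p = 0.126, 0.272 and 0.0772), but Calca passed without empty vector replicate 1 (0.0499). The list's median was 0.25.

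Of 3 genes for receptor partners and scavengers, 2 rose. Crcp, whose product couples CALCRL to the G protein, was at 9.72 ± 0.10 in p53 R273H cells and 9.02 ± 0.12 in empty vector cells (SD, n = 3 each), a rise of 0.70 ± 0.11 (SE, limma adjusted p = 0.00213). Ackr3, deposited under its older symbol Cxcr7, encodes a receptor that removes adrenomedullin and the chemokine CXCL12 without G protein signalling. It was at 7.24 ± 0.11 in p53 R273H cells and 6.67 ± 0.03 in empty vector cells (SD, n = 3 each), a rise of 0.57 ± 0.10 (SE, limma adjusted p = 0.00348). Gpr182, a receptor once proposed to bind adrenomedullin, was dim and differed by 0.03 ± 0.23.

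Of 5 genes for processing and breakdown of the peptide, 1 rose and 1 fell. Mme, the membrane protease neprilysin that degrades adrenomedullin, was at 9.27 ± 0.04 in p53 R273H cells and 10.68 ± 0.04 in empty vector cells (SD, n = 3 each). It fell by 1.41 ± 0.09 (SE), a 2.66-fold difference (limma adjusted p = 2.05e-05). Pam, the enzyme that amidates the peptide, rose by 0.38 ± 0.11 (limma adjusted p = 0.0395), to 8.04 in p53 R273H cells, against 7.66 in empty vector cells. The call of Pam was lost whichever array was left out, with a limma adjusted p from 0.0514 to 0.128. The convertase Furin (-0.17), the carboxypeptidase Cpe (-0.04) and the endothelin-converting enzyme Ece1 (0.17) did not pass the test. The list's median was -0.04.

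Genes downstream of the receptor went both ways. Of 21 genes for the stimulatory G protein, adenylyl cyclases, protein kinase A and the cAMP sensors Epac, 3 fell and 1 rose, with a median of 0.00. Rapgef3, which encodes Epac1, fell by 1.41 ± 0.10 (SE), and the cyclase Adcy6 fell by 0.67 ± 0.09. The kinase subunit Prkar2a rose by 0.67 ± 0.12. The G protein gene Gnas and the brightest member Atf1 differed by 0.09 and 0.10 and did not pass. The count of rises was 2 without p53 R273H replicate 2.

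Of 8 genes for receptor desensitization and trafficking, 2 fell and 1 rose, with a median of 0.04. The arrestin Arrb1 fell by 0.71 ± 0.12 and the receptor kinase Grk5 fell by 0.62 ± 0.11. The receptor kinase Grk2, deposited as Adrbk1, rose by 0.55 ± 0.11. Nsf and Slc9a3r1, whose products bind RAMP3 and steer the receptor after uptake, differed by 0.11 each and did not pass.

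Of 11 genes that cAMP can induce, 5 rose and 3 fell, with a median of 0.41. That is 72.7% called, where 23.6% of all genes were. Only 1 of the 11 was dim and brighter genes were called more often, so that share is not matched to their level. The transcription factors Fosb and Fos rose by 2.05 ± 0.11 and 1.68 ± 0.13, and the kinase Sik1 fell by 1.76 ± 0.10. Serum and growth factors induce many of these genes as well. With p53 R273H replicate 2, empty vector replicate 1 or empty vector replicate 2 left out, 1 gene in place of 3 fell.

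Hypoxia genes were read beside Adm because it is one of them. Of 8 regulators of hypoxia-inducible factors (HIFs), 3 rose, with a median of 0.23. Egln1, a prolyl hydroxylase that marks HIFs for breakdown, rose by 0.46 ± 0.09 (SE), the HIF partner Arnt by 0.46 ± 0.12 and Hif1a by 0.44 ± 0.10. Only 1 of these was called without p53 R273H replicate 1 or without empty vector replicate 1. Hif1a then had limma adjusted p of 0.0501 and 0.0578, and it has several transcript clusters, whose mean differed by 0.24 (0.103). The limma adjusted p of Arnt was 0.0692 or 0.0743 with p53 R273H replicate 1 or 3 left out, and 0.0812 or 0.0771 with empty vector replicate 1 or 3 left out.

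Of 16 measured genes that low oxygen induces other than Adm, 7 rose and 2 fell, with a median of 0.14. That is 56.25% called, where 23.6% of all genes were. None of the 16 was dim and brighter genes were called more often, so that share is not matched to their level. P4ha2, a collagen prolyl hydroxylase, rose by 0.88 ± 0.10 and the kinase Pdk1 by 0.70 ± 0.13, while the stress gene Ndrg1 fell by 1.94 ± 0.09 and the lactate dehydrogenase Ldha by 0.53 ± 0.09. The number of rises was 4 without p53 R273H replicate 3 and without any 1 of the empty vector arrays.

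Of 13 other class B receptors, the family of CALCRL whose members can also pair with RAMPs, 0 passed the limma test and 1 had an unadjusted p under 0.05. Their differences ran from -0.24 to 0.30, their means from 3.82 to 5.00 in p53 R273H cells and from 3.69 to 4.81 in empty vector cells, and 8 were dim. Without p53 R273H replicate 1 the test called 1 of them.

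Other vasoactive peptides and receptors changed in both directions. Of 18 genes, 4 rose and 2 fell, with a median of 0.19. Edn1, which encodes the vasoconstrictor endothelin-1, was at 4.73 ± 0.28 in p53 R273H cells and 7.50 ± 0.21 in empty vector cells (SD, n = 3 each). It fell by 2.78 ± 0.17 (SE), opposite to the direction of Adm, while its receptors Ednra and Ednrb differed by 0.19 and 0.02 and did not pass. Nppb, the gene of brain natriuretic peptide, rose by 1.41 ± 0.09 and the natriuretic peptide receptor Npr2 by 1.31 ± 0.12.

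**Figure D4:**
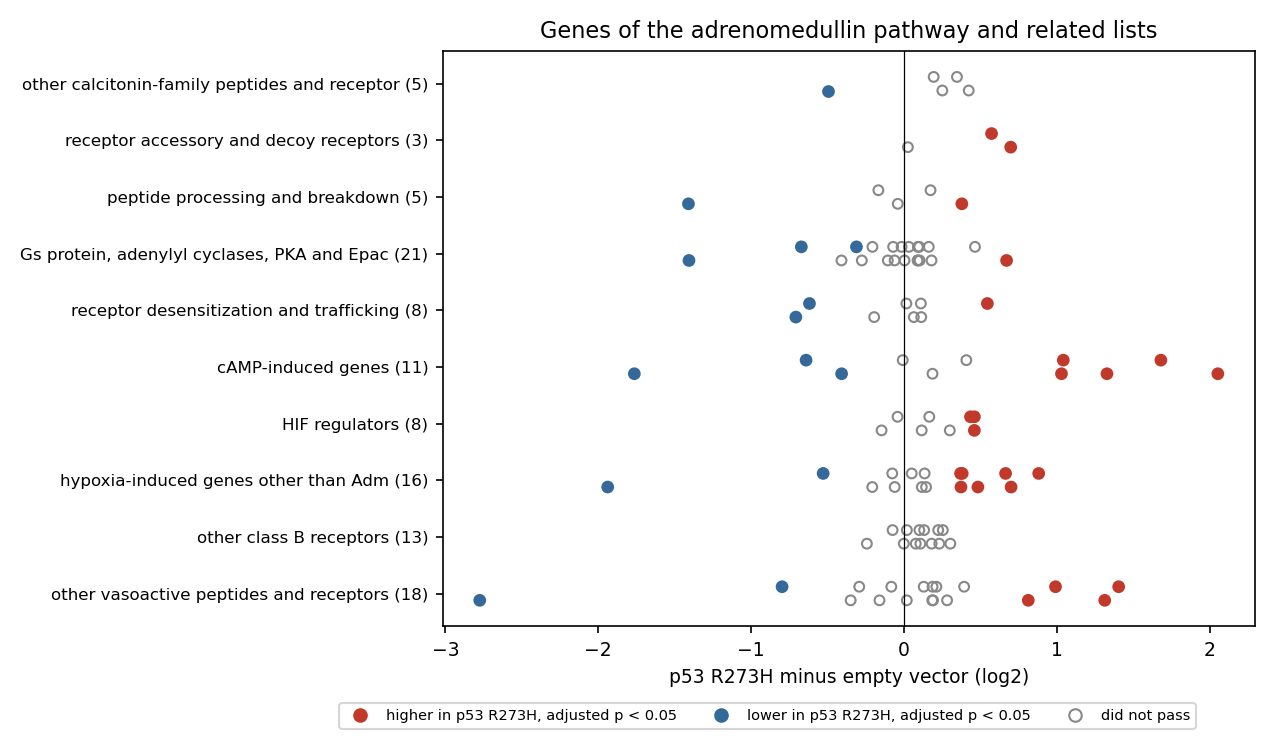
Difference between p53 R273H and empty vector cells (log2, horizontal axis) for each gene of the 10 lists (rows, number measured in brackets). Filled points passed the limma test at an adjusted p under 0.05, red where higher and blue where lower in p53 R273H cells, and open points did not; the extremes are Fosb at 2.05 and Edn1 at -2.78.

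CALCRL and RAMP2 are hallmarks of vessel lining cells, so markers of other cell types were measured beside them. Counts of called markers stand against 23.6% of all genes. Of 13 endothelial markers 2 rose, 1 fell and 8 were dim, which is 23.1% called and near that share. The list's median difference was 0.08. Its mean level lay between 4.45 and 4.59 in p53 R273H arrays and between 4.25 and 4.27 in empty vector arrays. Kdr, the brightest, was at 6.29 ± 0.09 in p53 R273H cells and 4.53 ± 0.08 in empty vector cells (SD, n = 3 each), a rise of 1.76 ± 0.10 (SE). Flt1 rose by 1.41 ± 0.09 and Tie1 fell by 0.35 ± 0.10, while the other 10 markers lay between -0.24 and 0.24, so the difference in mean level came with Kdr and Flt1 and not with the list as a whole. The defining markers Pecam1 and Cdh5 were at 4.67 and 4.96 in p53 R273H cells and at 4.68 and 4.85 in empty vector cells, and neither passed the test. No marker is at 0 on such arrays, and the part of endothelial RNA in the rise of Ramp2 was not tested.

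Of 3 lymphatic markers 0 passed the limma test, also at an unadjusted p under 0.05, and the brightest, Lyve1, differed by 0.07. Of 8 smooth muscle markers 2 rose and 1 fell (37.5% called, median 0.01), the brightest being Acta2, which rose by 1.82 ± 0.10. Tagln rose by 0.60 ± 0.14 and Cnn1 fell by 0.86 ± 0.11, while the others did not pass. The mean level of the smooth muscle list was 6.47 to 6.59 in p53 R273H arrays and 6.30 to 6.46 in empty vector arrays. Of 7 fibroblast markers 3 rose and 1 fell (57.1% called, median 0.36). The mean level of the fibroblast list was 5.10 to 5.31 in p53 R273H arrays and 4.23 to 4.55 in empty vector arrays. This difference came largely with Dcn (4.70), which was also picked above for its likeness to Adm. The others were Pdgfra (1.11), Col1a1, the brightest (0.72), Thy1 (0.36), Lum (0.05), Pdgfrb (-0.01) and Col1a2 (-1.04), of which Pdgfra and Col1a1 rose and Col1a2 fell. The part of such cells in the level of Adm was not tested. Of 6 leukocyte markers 1 rose and 1 fell (33.3% called, median 0.01), and Cd68, the brightest, fell by 0.73 ± 0.09. Ptprc, which was dim, rose by 0.60 ± 0.13. Of the oviductal epithelium markers 60.0% were called, but only 1 of the 10 was dim, so the share over all genes is not matched to their level. The brightest, Krt18, differed by 0.25 ± 0.10 and did not pass (limma adjusted p = 0.112), but it passed with a trended and robust variance (0.00384) and with genes under the 50th percentile left out (0.0332). The mean level of the epithelial list was 7.17 to 7.24 in p53 R273H arrays and 7.72 to 7.74 in empty vector arrays.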

How the data were processed

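Per the labels' protocols, total RNA of 6 cultures was biotin-labelled with Affymetrix reagents for whole transcripts. For 41345 transcript clusters the authors deposited values on a log2 scale. The sources used here do not state the array model, the background correction or the normalization. The scale was checked against the deposited ratio, whose log2 matched the difference of group means within 6.64e-05. The authors' deposited comparison also holds p-values, step-up p-values and a signed fold as a score, per the file headers.

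Gene symbols came from that table. Of its rows, 14308 had no symbol and 809 cited RefSeq accessions of several genes, and both were left out. Of 26 symbols that a spreadsheet had changed, 20 were restored through RefSeq (GRCm38.p6). For 1414 genes with several rows the one with the highest mean was used, which left 24268 genes. The 2 lines were set against each other in R 4.3.3 with the lmFit and eBayes functions of limma 3.58.1 (two-sided, no covariates, no filter), tested on simulated data, with Benjamini-Hochberg adjustment over all genes and a threshold of 0.05.

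The members and lists were chosen with earlier results of these data known. Of the 109 list genes 3 were found under an older symbol and 1 was not matched. One further gene is not reported here. The text names the 5 members, their neighbours, the 3 genes nearest in pattern, all members of lists of 6 or fewer, and in other lists the 3 with most change plus the top one of the rarer direction, with the brightest marker of each cell type and Trp53. Genes named outside this rule are Pax8, Epcam, Ldha, Gnas, Atf1, Nsf, Slc9a3r1, Ednra, Ednrb, Pecam1 and Cdh5. The further markers Flt1, Tie1, Pdgfra, Pdgfrb, Thy1, Lum, Col1a2, Krt7, Krt8, Krt19, Wt1, Ovgp1, Foxj1, Tagln, Cnn1 and Ptprc are also outside it. All of these were chosen after their values were seen.

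Each array was left out in turn. Other alternatives changed the scaling (array medians, quantiles), dropped genes under the 30th or the 50th percentile, averaged all rows of a gene, changed the variance model (trended and robust, or unmoderated) or added a replicate block.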

Additional observations from a re-analysis of the deposited data

How the results depend on the processing

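The difference of Adm stayed between 4.56 and 4.69 with each array left out, and differed from 4.63 by less than the SD of empty vector arrays under all alternatives (0.13, against 0.06 for p53 R273H arrays). Ramp3 kept its call under every alternative that retained it, from -0.65 to -0.54 with arrays left out. Ramp2 kept its direction, from 0.42 to 0.55, but lost its call in 4 of the 6 leave-one-out comparisons, which have fewer arrays. Calcrl ran from -0.025, without p53 R273H replicate 3, to 0.31. Among genes that did not pass, Gpr182 ran from -0.18 to 0.25 and Lyve1 from -0.10 to 0.20. Calcrl fell below the filter at the 30th percentile, and Calcrl, Ramp1 and Ramp3 below that at the 50th, so these gave no value there. The count of genes called ran from 4421 to 6844, against 5717. Of the list genes, between 29 and 41 were called, against 38. Whether dim signals such as Calcrl exceed background is not known, which limits what their differences show.

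Same-numbered arrays of the lines did not deviate together (r = -0.07, 0.01 and 0.00 for replicates 1, 2 and 3, across genes), so the numbers are not taken to pair them. With the replicate number as a block, the adjusted p was 0.0251 for Ramp2, 0.0125 for Ramp3, 0.544 for Calcrl and 0.505 for Ramp1 (limma), the difference of Adm was 4.63, and 4827 genes were called. Under the block Pam (0.0613) and Arnt (0.0631) lost their calls and Calca (0.0394) gained one, while hypoxia genes that rose numbered 4 in place of 7.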
